A study of Mus musculus with 6 samples.

Results

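The UDP-glucuronosyltransferase genes described here are the 10 genes named Ugt2a3, Ugt2b1, Ugt2b5, Ugt2b34, Ugt2b35, Ugt2b36, Ugt2b37, Ugt2b38, Ugt3a1 and Ugt3a2 in a mouse liver expression table. They were taken by name, and all 10 were present among the 34745 genes of the table. Liver messenger RNA was sequenced from C57BL/6 mice in 6 libraries, 1 for each of 3 tissues in each sex, to follow liver cancer development in males and females. Normal liver came from wild-type mice, and precancerous liver and tumor, a hepatocellular carcinoma, came from Hras12V transgenic mice, which carry an activated form of the Hras oncogene. The male mice were 9 months of age in every tissue and the female mice 15 months, no mouse was treated, and sex and age therefore cannot be told apart. The submitters describe the precancerous tissue as adjacent to tumor, and whether the paired libraries share a mouse is not stated. The labels name neither the promoter that drives the transgene nor the number of mice behind a library.

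UDP-glucuronosyltransferases are membrane enzymes of the endoplasmic reticulum that join a sugar from a UDP-sugar to small fat-soluble molecules, so that drugs, steroids, bilirubin and bile acids become soluble enough to leave in bile and urine. The liver is the main site of this reaction. Enzymes of the UGT2 family use UDP-glucuronic acid, whereas in humans the enzymes of the UGT3 family were found to use other UDP-sugars, UDP-N-acetylglucosamine for UGT3A1 and UDP-glucose and UDP-xylose for UGT3A2.

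The 8 Ugt2 genes lay in 1 cluster on chromosome 5 of the mouse build GRCm38, in the order Ugt2b34, Ugt2b1, Ugt2b35, Ugt2b36, Ugt2b5, Ugt2b37, Ugt2a3 and Ugt2b38. The first of them, Ugt2b34 (ENSMUSG00000029260), began at 86889767 and the last, Ugt2b38, ended at 87424203. Of these 8, Ugt2b35 alone was on the plus strand. Ugt3a1 and Ugt3a2 were neighbours on the plus strand of chromosome 15, and Ugt3a2 spanned 9335550 to 9370955. No exon of a member lay under an exon of another gene on either strand in the GENCODE M21 annotation. The gene lengths behind the FPKM values equalled the exonic bases of that annotation for 6 members and were longer for Ugt2b34 (6247 against 4312), Ugt2b36 (2825 against 2059), Ugt3a1 (3336 against 2670) and Ugt3a2 (3837 against 3102), so overlap in the counted bases beyond those exons was not checked.

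RefSeq promoter sequence (GRCm38.p6, 250 bases before the start site to 50 after it) was at hand for 9 members, all but Ugt3a2. The stretches below are shown because they hold a run of letters that members of both families shared. Each is a run of 40 bases, written 5′ to 3′ on the gene's own strand. Capitals mark the match to GTTANNNNNTAAC, which reads the same on both strands.
Ugt2b34, chr5:86906985-86907024, minus strand: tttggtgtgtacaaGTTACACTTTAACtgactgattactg
Ugt2b1, chr5:86926567-86926606, minus strand: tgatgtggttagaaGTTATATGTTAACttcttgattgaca
Ugt2b35, chr5:87000776-87000815, plus strand: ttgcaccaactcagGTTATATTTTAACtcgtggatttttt
Ugt2b36, chr5:87092594-87092633, minus strand: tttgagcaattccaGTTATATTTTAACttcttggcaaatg
Ugt2b5, chr5:87140376-87140415, minus strand: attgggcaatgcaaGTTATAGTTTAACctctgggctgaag
Ugt2b37, chr5:87254841-87254880, minus strand: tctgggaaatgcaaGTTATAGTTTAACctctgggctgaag
Ugt2a3, chr5:87337224-87337263, minus strand: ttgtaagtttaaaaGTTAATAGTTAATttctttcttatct
Ugt2b38, chr5:87424242-87424281, minus strand: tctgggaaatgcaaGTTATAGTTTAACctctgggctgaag
Ugt3a1, chr15:9279685-9279724, plus strand: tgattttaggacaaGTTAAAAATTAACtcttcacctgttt
The full layout stood in 8 of the 9 member promoters, and Ugt2a3 carried 7 of its 8 fixed letters, with the nearest match shown. Of all 32851 mouse promoters of this length, 109 (0.332%) held it, and of 11 promoters of other UGT genes 0 held it. The layout was chosen after these windows had been read, so its count among the members is a description and not a test. A match of letters is not evidence that any factor binds there. The letters TTCNNNGAA, the known core of sites for STAT5, a mediator of growth hormone signals, were in 0 of 9 member promoters and 8.3% of all promoters. The capitals ended between 41 bases (Ugt2a3) and 117 bases (Ugt3a1) before the RefSeq start site. That start lay inside the table's gene limits for Ugt2b1, Ugt2b37 and Ugt3a1, beyond them for Ugt2b5, and exactly at the limit for the other members shown.

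The libraries summed to 5996585, 6891837 and 7347064 counts in male normal, precancerous and tumor tissue, and to 17655912, 15047022 and 18434508 counts in the female tissues in the same order. Levels are given as FPKM, the count divided by gene length and by the total of the library. A floor of 3 counts equalled 0.163 to 0.500 FPM (counts scaled to the library total alone) in these libraries, and it covers counting error only. The sex labels matched the data, since Xist was at 41.8 to 46.7 FPKM in female libraries and at most 0.0178 FPKM in male ones, and Ddx3y was at 11.9 to 13.3 FPKM in male libraries and at most 0.00716 FPKM in female ones. Hras had 3.28, 3.27 and 3.50 FPKM in male normal, precancerous and tumor tissue and 2.05, 2.22 and 2.84 FPKM in the female ones, and the mouse and transgene copies are not told apart by these counts. The hepatocyte markers were high in all 6 libraries, with Alb between 22399 and 54600 FPKM. The mitochondrial gene mt-Co1 was listed at 0 in all 3 male libraries and at 9344 to 21499 FPKM in the female ones.

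Most of the UGT2 transcript in every tissue came from a few genes, and Ugt2b5 had the highest level of the 10 in all 6 libraries. Ugt2b5 had 597, 361 and 263 FPKM in male normal, precancerous and tumor tissue and 235, 221 and 205 FPKM in the female tissues, with 98.5% to 99.3% of the tested genes at or below it in each library. The 10 levels summed to 1759, 1233 and 722 FPKM in males and to 783, 765 and 494 FPKM in females, in the order normal, precancerous and tumor. The sum was thus lowest in the tumor of each sex, and in each tissue it was higher in the male than in the female library.

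**Figure D1:**
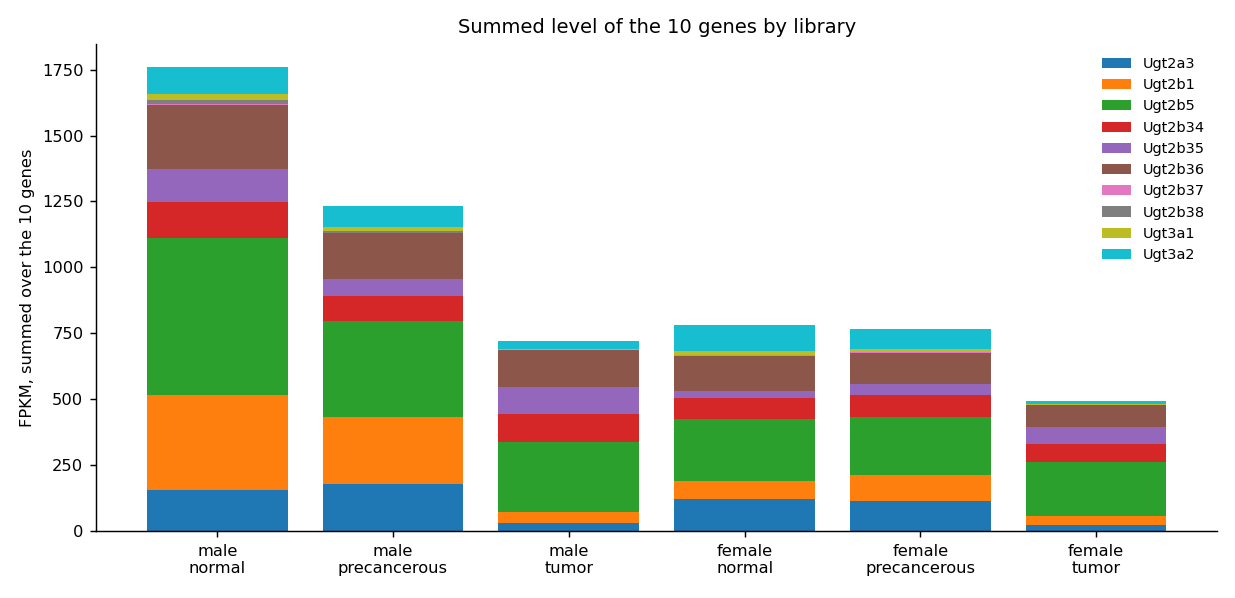
Summed FPKM of the 10 genes (vertical axis) in each library (horizontal axis, males left, each sex in the order normal, precancerous, tumor), with 1 coloured block per gene. The male column is 722 FPKM high in tumor tissue, and the blocks of Ugt2b1 and Ugt2a3 are smallest in the tumor of each sex, while that of Ugt2b35 is taller in each tumor than in the precancerous tissue of that sex.

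The makeup of the sum differed between tumor and the other tissues. Ugt2b1 made up 20.4%, 20.8% and 5.90% of it in male normal, precancerous and tumor tissue, and 8.72%, 12.8% and 7.18% in the female tissues. Ugt2a3 made up 9.02%, 14.4% and 4.43% in the male tissues and 15.8%, 15.0% and 4.61% in the female ones. Ugt2b35 went the other way, with 7.03%, 5.40% and 14.3% in the male tissues and 3.57%, 5.37% and 12.9% in the female ones. Ugt2b5 held 28.9% to 41.6% of the sum over the 6 libraries, with its highest share in the tumor of each sex. These shares come from 1 library each and have no replicate check.

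Differences between tissues and between sexes were tested in 1 model over all 6 libraries, with terms for tissue and for sex. The filter asked for 1 FPKM or more in 2 or more libraries, which left 11435 genes, and all 10 members passed it. Calls are those of edgeR's quasi-likelihood test, two-sided, at p under 0.05 after Benjamini-Hochberg adjustment over all of these genes. Since no group has a second library, the spread that the test uses is the disagreement between the sexes over a tissue, and a p-value measures only the spread between these libraries. In whole tissue, fewer cells of a type and less RNA per cell cannot be told apart.

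In tumor against precancerous liver, 6 of the 10 genes fell and 0 rose, where 12.1% of all tested genes fell and 13.8% rose. The 6 were Ugt2a3, Ugt2b1, Ugt2b37, Ugt2b38, Ugt3a1 and Ugt3a2. Of these, Ugt2b37 and Ugt2b38 passed the filter through normal and precancerous libraries alone, so their calls are no more than descriptions. The other 4, Ugt2b5, Ugt2b34, Ugt2b35 and Ugt2b36, did not pass the test. The median log2 fold change of the members was -2.0, against 0.03 over all tested genes.

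Ugt2a3, whose human counterpart conjugates bile acids, had 159, 178 and 32.0 FPKM in male normal, precancerous and tumor tissue, and 123, 115 and 22.8 FPKM in the female tissues. Both tumors were below all 4 non-tumor libraries, while normal and precancerous tissue were close within each sex. In tumor against precancerous tissue its log2 fold change was -2.44 (SE 0.16, adjusted p = 0.00279), and in tumor against normal tissue it was -2.41 (SE 0.16, adjusted p = 0.00134). Both calls held when any 1 of the 6 libraries was left out.

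Ugt3a1 had 26.0, 13.9 and 3.51 FPKM in male normal, precancerous and tumor tissue, and 16.5, 10.5 and 2.54 FPKM in the female tissues. Its levels stepped down at each stage without overlap between the tissues: both normal libraries were above the precancerous ones, and these were above the tumors. Of the 10 genes this held for Ugt3a1 and Ugt3a2. The share of all tested genes with such an order was not counted, so it is a description. Its log2 fold change was -2.04 (SE 0.12, adjusted p = 0.00261) in tumor against precancerous tissue and -2.82 (SE 0.12, adjusted p = 0.000987) in tumor against normal tissue. These calls also held without any 1 library.

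Ugt3a2, its neighbour with 93.2% identity over the aligned coding bases, was present at a higher level, with 100.005, 80.3 and 30.2 FPKM in male normal, precancerous and tumor tissue and 99.98, 74.1 and 11.1 FPKM in the female tissues. The normal livers of the sexes were at the same level, and the female tumor was the lowest library. The log2 fold change was -2.05 (SE 0.39, adjusted p = 0.0199) in tumor against precancerous tissue and -2.44 (SE 0.39, adjusted p = 0.0096) in tumor against normal tissue. Without the male precancerous library the first of these was -2.37 (adjusted p = 0.103), and without the female precancerous library it was -1.79 (adjusted p = 0.126), so that call did not hold. The call against normal tissue held without any 1 library.

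Ugt2b1, an enzyme known in rats to conjugate steroids and foreign compounds, had 358, 257 and 42.6 FPKM in male normal, precancerous and tumor tissue, and 68.3, 98.3 and 35.4 FPKM in the female tissues. The tumors of both sexes were near each other, whereas the normal livers were far apart. In tumor over precancerous tissue the FPKM ratio was 0.166 in males (95% counting interval 0.154 to 0.179) and 0.361 in females (0.340 to 0.382), and the difference between these single pairs was not tested. The fitted log2 fold change was -1.96 (SE 0.51, adjusted p = 0.0463) against precancerous and -2.02 (SE 0.53, adjusted p = 0.0381) against normal tissue. Against precancerous tissue the call was lost without the male precancerous (-1.95), female precancerous (-2.02) or male tumor library (-1.29). This call was also lost with no sex term, and by limma on log2(FPKM + 1) (adjusted p = 0.0545) and on log2(FPKM + 0.1). Against normal tissue it was lost without the male normal (-1.24, adjusted p = 0.0847), male precancerous (-2.04, adjusted p = 0.0802), female precancerous (-2.04, adjusted p = 0.0821) or male tumor library (-1.26, adjusted p = 0.0643).

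Ugt2b37 was a low gene, with 1.58, 1.30 and 0.359 FPKM in male normal, precancerous and tumor tissue (18, 17 and 5 counts) and 1.23, 4.28 and 0.401 FPKM in the female tissues (41, 122 and 14 counts). The female precancerous library stood above the other 5. The log2 fold change in tumor against precancerous tissue was -2.92 (SE 0.59, adjusted p = 0.0236), and it was -1.68 (adjusted p = 0.184) without the female precancerous library and -2.54 (adjusted p = 0.151) without the female tumor library. On log2(FPKM + 1), limma gave -1.34 (adjusted p = 0.0641). Against normal tissue it was -1.89 (SE 0.63, adjusted p = 0.0747) and did not pass, but it passed without the male precancerous (-1.83, adjusted p = 0.0409) or female precancerous library (-1.82, adjusted p = 0.0478).

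Ugt2b38 was measurable in the male libraries alone. It had 13.8, 7.52 and 0.648 FPKM in male normal, precancerous and tumor tissue (156, 98 and 9 counts), and 0.0599, 0.0703 and 0.0860 FPKM in the female tissues, from 2, 2 and 3 counts. The female libraries were all at or under the floor of 3 counts, so they carry no measurable change between tissues. The fitted log2 fold change was -3.04 (SE 0.81, adjusted p = 0.0496) in tumor against precancerous and -3.77 (SE 0.79, adjusted p = 0.021) in tumor against normal tissue. Both rest on the male libraries: without the male tumor library they were 0.82 (adjusted p = 0.597) and 0.03. In the male pair alone the FPKM ratio of tumor over precancerous tissue was 0.0862 (95% counting interval 0.0383 to 0.170). The call against precancerous tissue was also lost without the male normal (-2.94, adjusted p = 0.0538), male precancerous (-2.48, adjusted p = 0.602) or female precancerous library (-3.05, adjusted p = 0.159). The call against normal tissue was lost without the male normal (-1.53, adjusted p = 0.622), male precancerous (-3.62, adjusted p = 0.0703) or female precancerous library (-3.72, adjusted p = 0.0556). Neither call was made by DESeq2 or limma, and that against precancerous tissue was also lost under RLE scaling (adjusted p = 0.0501) and library totals alone (adjusted p = 0.052).

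**Figure D2:**
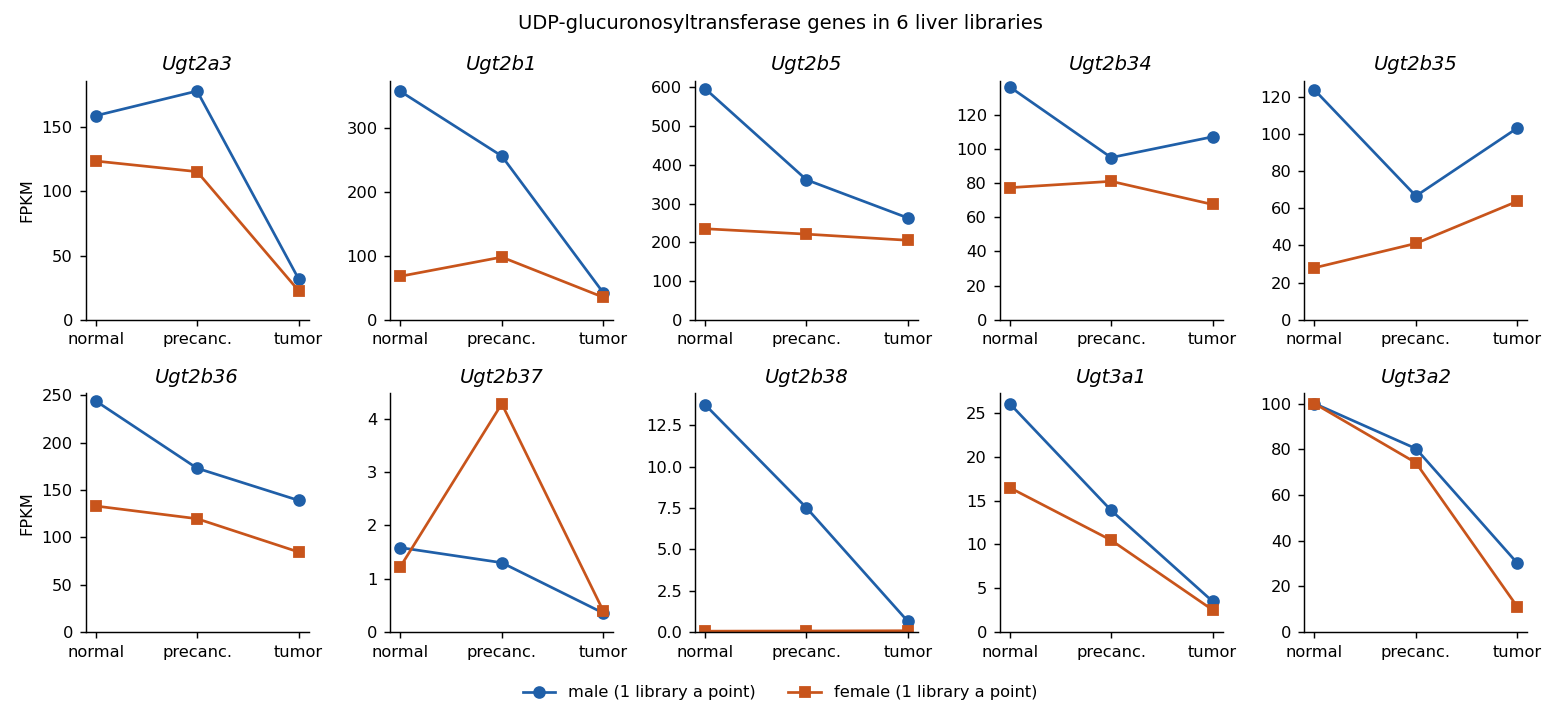
FPKM (vertical axis, from 0, with its own scale in each panel) of each of the 10 genes in normal, precancerous and tumor liver (horizontal axis), with circles for males and squares for females, 1 library a point. Ugt2a3, Ugt3a1 and Ugt3a2 are lowest in the tumor of each sex, Ugt2b35 is higher in each tumor than in precancerous tissue, and Ugt2b38 is seen in males alone, at 13.8 FPKM in normal liver.

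The 4 genes without a call in tumor against precancerous tissue stayed at 63.8 FPKM or more in every tumor. Ugt2b5, whose 6 levels are given above, had a log2 fold change of -0.29 (SE 0.27, adjusted p = 0.467). Ugt2b36 had 244, 173 and 139 FPKM in male normal, precancerous and tumor tissue and 133, 119.7 and 84.6 FPKM in the female tissues. In both sexes the tumor was the lowest of the 3 tissues for Ugt2b36, with a log2 fold change of -0.44 (SE 0.16, adjusted p = 0.106) against precancerous tissue, which DESeq2 called (-0.46, adjusted p = 0.0287).

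Ugt2b34 had 136, 94.9 and 107 FPKM in male normal, precancerous and tumor tissue and 77.3, 81.0 and 67.5 FPKM in the female tissues. Its tumor and precancerous values overlapped across the sexes, and its log2 fold change was -0.08 (SE 0.19, adjusted p = 0.791). Ugt2b35 had 124, 66.6 and 103 FPKM in male normal, precancerous and tumor tissue and 28.0, 41.1 and 63.8 FPKM in the female tissues. It was the 1 member with a positive fitted difference in tumor against precancerous tissue, 0.61 on the log2 scale (SE 0.39, adjusted p = 0.303). The FPKM ratio of Ugt2b35 in tumor over precancerous tissue was 1.55 in males (95% counting interval 1.45 to 1.65) and 1.55 in females (1.47 to 1.64). The fit called it higher without the male normal (0.59, adjusted p = 0.0448) or the female normal library (0.60, adjusted p = 0.0445).

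The count of 6 depended on the libraries. Without the male precancerous library only Ugt2a3, Ugt2b37 and Ugt3a1 stayed called, and without the female precancerous library only Ugt2a3 and Ugt3a1. A fit with no sex term called 1, Ugt2a3, where 61 of the 11435 tested genes were called lower. Without either precancerous library fewer of all tested genes were called as well.

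In tumor against normal liver, 6 of the 10 genes fell and 0 rose, where 16.1% of all tested genes fell and 17.3% rose. The genes were Ugt2a3, Ugt2b1, Ugt2b36, Ugt2b38, Ugt3a1 and Ugt3a2. Ugt2b38 passed the filter through the male normal and male precancerous libraries alone, so its call is no more than a description here too. This comparison shares its tumor libraries with the one before, so the 2 sets of calls are not separate evidence. Ugt2b36 passed here with a log2 fold change of -0.77 (SE 0.16, adjusted p = 0.0212), and the call was lost whichever library was left out (-0.88 to -0.65, adjusted p from 0.0544 to 0.0966). Ugt2b5 had a log2 fold change of -0.72 (SE 0.27, adjusted p = 0.0992), called by DESeq2 (-0.74, adjusted p = 0.0421), and its FPKM ratio of tumor over normal tissue was 0.441 in males (95% counting interval 0.423 to 0.459) and 0.873 in females (0.845 to 0.902). Ugt2b34 had a log2 fold change of -0.31 (SE 0.19, adjusted p = 0.276). Ugt2b35 was at 0.38 (SE 0.39, adjusted p = 0.508) and, without the male normal library, was called higher at 1.15 (adjusted p = 0.0217). With 1 library left out at a time, the lower calls of Ugt2a3, Ugt3a1 and Ugt3a2 held throughout, and those of the other genes did not. A fit with no sex term called 2, Ugt2a3 and Ugt3a1.

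**Figure D3:**
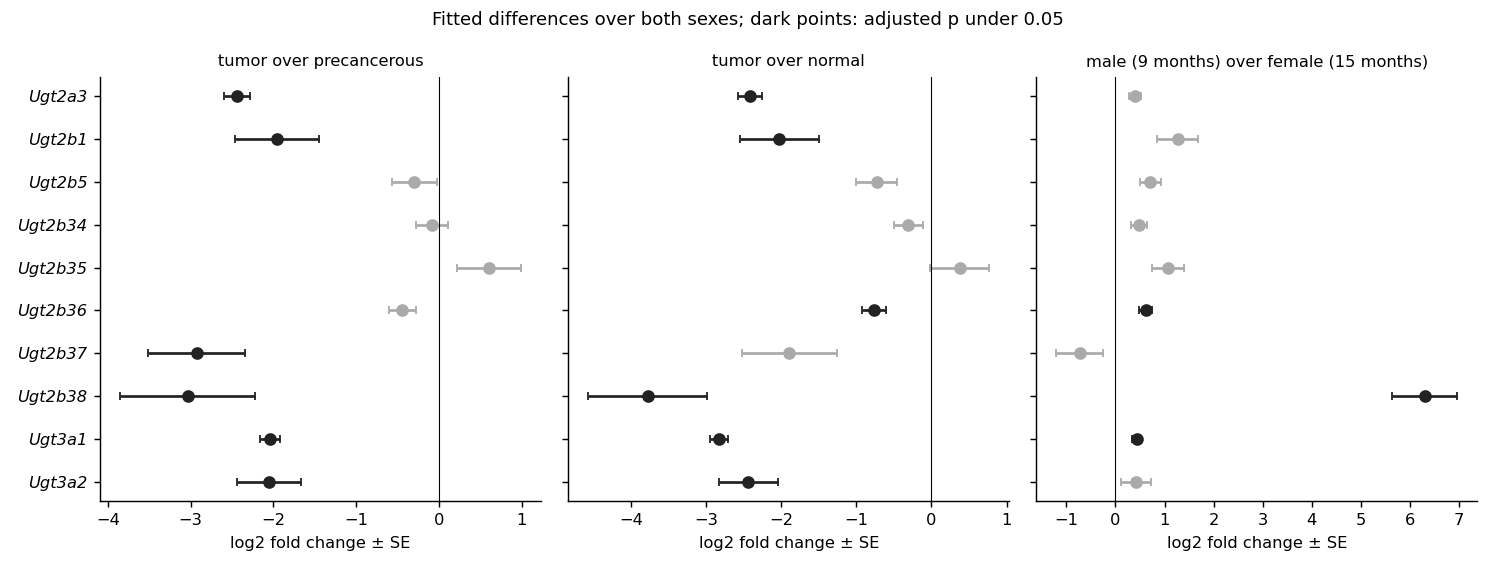
Fitted log2 fold changes of the 10 genes (points, with bars of 1 standard error) for tumor over precancerous, tumor over normal and male over female liver, over all 6 libraries. Dark points passed an adjusted p under 0.05. In both tumor panels 6 genes pass on the lower side, and Ugt2b38 stands at 6.30 in the male over female panel.

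In precancerous against normal liver, 0 of the 10 genes were called by edgeR's quasi-likelihood test, where 0.254% of all tested genes were called. At an unadjusted p under 0.05, 1 member passed, Ugt3a1, where 7.27% of all tested genes were lower at that threshold, with a log2 fold change of -0.78 (SE 0.11, unadjusted p = 0.000731, adjusted p = 0.0757). DESeq2, which called 1.38% of all tested genes lower, called this gene as well (-0.77, adjusted p = 0.00842), and limma called 0 members. The FPKM ratio of Ugt3a1 in precancerous over normal tissue was 0.533 in males (95% counting interval 0.462 to 0.614) and 0.636 in females (0.571 to 0.708). In males 9 of the 10 genes were lower in precancerous than in normal tissue, and in females 5 were lower and 5 higher. The median difference of log2(FPKM + 1) over the members was -0.51 in males and -0.04 in females, against -0.01 and 0 over all tested genes.

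In male against female liver, 3 genes were called higher, Ugt2b36, Ugt2b38 and Ugt3a1, and 0 lower, where 19.1% of all tested genes were higher and 18.2% lower. Ugt2b38 passed the filter through male libraries alone, so it had to differ and its call is given as a description. The fitted difference was positive for 9 of the 10 genes, with Ugt2b37 as the exception (-0.73, SE 0.47, adjusted p = 0.267). The count was 7 when counts were scaled by library totals alone (23.9% of all tested genes), 8 by DESeq2 (16.4%) and 6 by limma on log2(FPKM + 1) (22.5%) and on log2(FPKM + 0.1) (22.8%). With 1 library left out at a time, no member stayed called throughout, and fewer of all tested genes were called as well. With library totals alone, 2737 of all genes were higher and 1602 lower, against 2187 and 2083 in the main fit. The male and female libraries also differ in age, in depth and in the mt-Co1 values given above, and their part in these differences was not tested.

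Ugt2b38 had the largest difference of the 10 between the sexes, with a fitted log2 fold change of 6.30 (SE 0.67), a value set by female libraries at or under the floor of 3 counts. In normal liver its FPKM ratio of male over female was 230 (95% counting interval 62.5 to 1913, from 156 and 2 counts), and in the tumors it was 7.53 (1.88 to 43.2, from 9 and 3 counts). Ugt2b36 was higher in males by 0.62 on the log2 scale (SE 0.13, adjusted p = 0.0219) and Ugt3a1 by 0.43 (SE 0.09, adjusted p = 0.0227). The call of Ugt2b36 was lost whichever library was left out (0.53 to 0.69, adjusted p from 0.0503 to 0.0983). That of Ugt3a1 was lost without the male normal (0.34, adjusted p = 0.105), male precancerous (0.47, adjusted p = 0.0974), female normal (0.35, adjusted p = 0.0977) or female precancerous library (0.46, adjusted p = 0.107).

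Ugt2b38 and Ugt2b5 are near copies, which bears on how far the low gene's counts can be trusted. Their coding bases were 97.0% identical, and 37.4% of the 50-base stretches of the Ugt2b38 transcript also occurred in another gene, as did 41.7% of those of Ugt2b5 and 18.3% of those of Ugt2b37. For the other members the share was at most 7.6%. Ugt2b38 had 2.35%, 2.12% and 0.251% as many counts as Ugt2b5 in male normal, precancerous and tumor tissue, and 0.0259%, 0.0323% and 0.0426% in the female tissues. Ugt2b5 itself had 7714, 6184 and 7034 counts in the female tissues, so at most 2 to 3 Ugt2b38 counts there can be reads of Ugt2b5. This limit holds for the female libraries alone. Whether both sexes were counted alike is not known, and the mitochondrial gene given above differed between them. Reads of Ugt2b38 counted as Ugt2b5 are not limited by it in either sex. The Ugt2b38 counts were no fixed share of the Ugt2b5 counts across the libraries. The part of shared reads in the male Ugt2b38 counts was not tested. The sources used here do not say how reads that match both copies were counted, and the values of Ugt2b5, Ugt2b37 and Ugt2b38 are uncertain for that reason.

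The sequences before the start sites of Ugt2b38 and Ugt2b5 are shown because Ugt2b38 had the largest male over female difference of the 10 genes, while these sequences, like the coding bases, are near copies. They were 88.3% identical over the aligned bases. Each is the 250 bases before the RefSeq start site (GRCm38.p6), and capitals mark GTTANNNNNTAAC, which is spelled alike in both.
Ugt2b38, chr5:87424204-87424453, minus strand: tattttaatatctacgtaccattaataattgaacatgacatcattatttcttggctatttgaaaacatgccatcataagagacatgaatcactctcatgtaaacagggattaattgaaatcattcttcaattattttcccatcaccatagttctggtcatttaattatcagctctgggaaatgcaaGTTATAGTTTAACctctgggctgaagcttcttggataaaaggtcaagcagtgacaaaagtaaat
Ugt2b5, chr5:87140341-87140590, minus strand: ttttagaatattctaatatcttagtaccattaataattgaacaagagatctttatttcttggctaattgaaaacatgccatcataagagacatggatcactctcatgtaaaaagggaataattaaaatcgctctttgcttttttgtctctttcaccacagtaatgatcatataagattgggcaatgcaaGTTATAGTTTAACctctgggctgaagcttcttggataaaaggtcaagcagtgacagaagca
Ugt2b37, at 0.359 to 1.58 FPKM in males and 0.401 to 4.28 FPKM in females, was 94.9% identical to Ugt2b38 over the same kind of window and had the same 13 capital letters. No other member pair came above 88.3% there.

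For 7 of the 10 genes, all but Ugt2a3, Ugt2b37 and Ugt3a2, the gap between the sexes was widest in normal liver. The share of all tested genes with their widest gap there was not counted, so this is a description. In normal tissue the difference of log2(FPKM + 1), male minus female, was 2.37 for Ugt2b1, 2.10 for Ugt2b35, 1.34 for Ugt2b5 and 3.80 for Ugt2b38. In the male normal liver these 4 members were higher by 2-fold or more, as were 7.73% of all tested genes. In precancerous tissue 2 members, Ugt2b1 (1.38) and Ugt2b38 (2.99), were higher in the male library by 2-fold or more, as were 6.88% of all tested genes, and 1 member, Ugt2b37 (-1.20), was lower by that much, as were 2.07%.

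In tumor tissue 1 member, Ugt3a2 (1.37), was higher in the male library by 2-fold or more on this scale, as were 6.72% of all tested genes. Ugt2b38 was at 0.60 there, which the pseudocount of 1 holds down, since its FPKM ratio was the 7.53 given above. There the difference was 0.26 for Ugt2b1, 0.69 for Ugt2b35 and 0.36 for Ugt2b5. For Ugt2b1 the FPKM ratio of male over female was 5.24 in normal (95% counting interval 5.02 to 5.48), 2.61 in precancerous (2.50 to 2.73) and 1.20 in tumor tissue (1.10 to 1.31). These are single pairs of libraries, so the change of the gap between tissues was not tested.

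**Figure D4:**
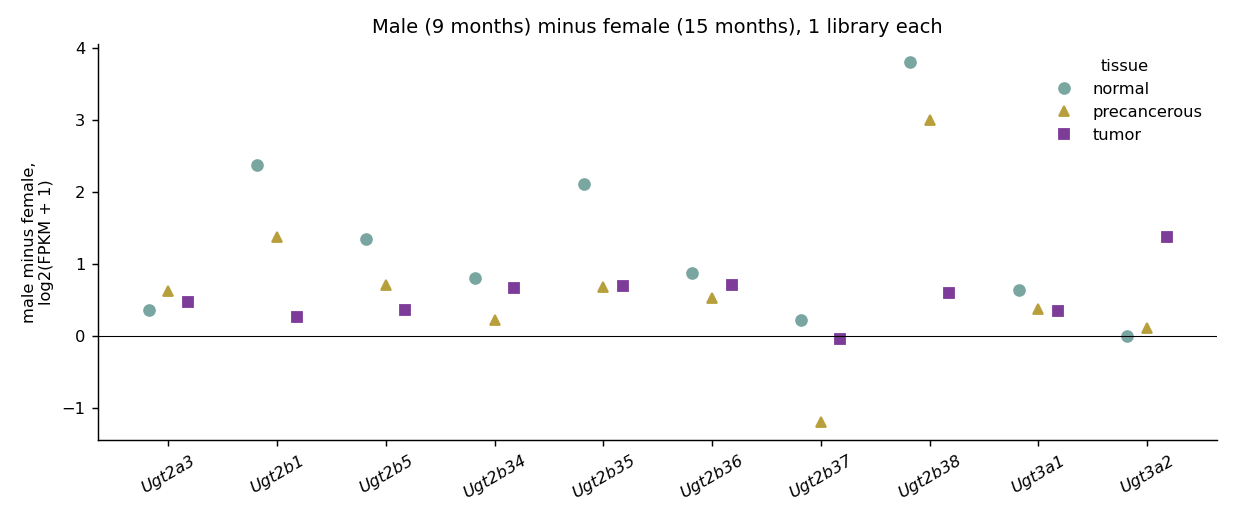
Male minus female difference of log2(FPKM + 1) (vertical axis) of the 10 genes (horizontal axis) in normal (circles), precancerous (triangles) and tumor liver (squares), 1 library a sex. For Ugt2b1, Ugt2b5, Ugt2b35 and Ugt2b38 the normal liver point is the highest of the 3, and for Ugt3a2 the tumor point is, at 1.37.

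The table lists 12 other UGT genes, of which 8 were tested. In tumor against precancerous tissue, where 12.1% of all tested genes fell and 13.8% rose, 1 fell and 0 rose. It was Ugt1a1, the bilirubin-conjugating enzyme, which had 226, 307 and 177 FPKM in male normal, precancerous and tumor tissue and 446, 432 and 218 FPKM in the female tissues (log2 fold change -0.92, SE 0.22, adjusted p = 0.0366). In tumor against normal tissue, where 16.1% of all tested genes fell, 1 fell, Ugt1a10 (-0.54, SE 0.15, adjusted p = 0.0455). In male against female liver, where 18.2% of all tested genes were lower and 19.1% higher, 3 were lower and 0 higher. The 3 were Ugt1a1 (-0.68), Ugt1a7c (-0.92) and Ugt1a6b (-1.69). The Ugt1a genes share their last exons, so their single values are uncertain, and their sum was 320, 429 and 269 FPKM in the male tissues and 677, 630 and 340 FPKM in the female ones. The summed level of the 10 members was thus higher in males in each tissue, and that of the Ugt1a genes higher in females.

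Of 9 tested genes that make or carry the UDP-sugars used by these transferases, 4 rose in tumor against precancerous tissue and 0 fell. Of all tested genes, 13.8% rose and 12.1% fell. The median log2 fold change of the 9 was 0.37, against 0.03 over all tested genes. Ugdh, which makes UDP-glucuronic acid from UDP-glucose, had 34.0, 11.7 and 44.7 FPKM in male normal, precancerous and tumor tissue and 15.4, 11.03 and 41.9 FPKM in the female tissues (log2 fold change 1.90, SE 0.30, adjusted p = 0.0131). The others were Pgm3 (1.94) and Gfpt1 (1.22), which act in the supply of UDP-N-acetylglucosamine, and Uxs1 (0.83), which makes UDP-xylose. In tumor against normal tissue, where 17.3% of all tested genes rose, 4 rose, Gfpt1, Pgm3, Uxs1 and Ugp2. Ugdh did not pass there (0.86, SE 0.30, adjusted p = 0.0822).

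Of 6 genes for the reversal and transport of glucuronides, 2 rose and 1 fell in tumor against precancerous tissue. Of all tested genes, 13.8% rose and 12.1% fell in this comparison. The export pumps Abcc4 (2.87, SE 0.42, adjusted p = 0.0107) and Abcc2 (0.74, SE 0.18, adjusted p = 0.0371) rose, and the uptake carrier Slco1b2 fell (-3.00, SE 0.45, adjusted p = 0.0109). Slco1b2 had 259, 195 and 43.3 FPKM in male normal, precancerous and tumor tissue and 148, 143 and 9.79 FPKM in the female tissues. In tumor against normal tissue 4 of the 6 rose, Abcc4, Abcc2, Abcc3 and the glucuronide-splitting Gusb, and Slco1b2 fell. The shares of all tested genes there were 17.3% higher and 16.1% lower.

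Of 13 genes known to regulate UGT genes or to carry hormone signals to the liver, 5 fell and 1 rose in tumor against precancerous tissue. Of all tested genes, 12.1% fell and 13.8% rose. The 5 were Nr1i3 (-2.22), Nr1i2 (-0.73) and Nr1h4 (-1.46), receptors for foreign compounds and bile acids, Ahr (-1.53), a receptor of aromatic compounds, and Ghr (-2.28), the growth hormone receptor. Nfe2l2, a factor of the oxidative stress response, rose (0.80). In male against female liver, where 18.2% of all tested genes were lower and 19.1% higher, 5 were lower and 0 higher. Among the 5 were Cux2 (-3.44), known for female-biased expression in mouse liver, Nr1i3 (-1.35), Nfe2l2 (-0.60) and Nr1i2 (-0.44).

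Cell type markers moved with the tumor comparison as well. In tumor against precancerous tissue, 12.1% of all tested genes fell and 13.8% rose. Of 5 tested hepatocyte markers 0 were called in tumor against precancerous tissue, with fitted log2 differences of 0.43 for Alb, 0.38 for Apoa1, 0.47 for Apob, -0.49 for Ttr and -0.62 for Serpina1c, and DESeq2 called 2 of the 5 lower. In tumor against normal tissue Ttr was called lower (-0.89, SE 0.19, adjusted p = 0.0214). The summed level of the 5, most of it Alb, was 31742, 46751 and 65525 FPKM in male normal, precancerous and tumor tissue and 45191, 51095 and 62671 FPKM in the female tissues. The 6 Kupffer cell markers all fell, with sums of 137, 230 and 52.1 FPKM in the male tissues and 167, 270 and 82.8 FPKM in the female ones. Of 3 tested cholangiocyte markers 2 rose. Endothelial markers gave 1 higher and 2 lower of 5, and stellate cell and fibroblast markers 3 higher and 2 lower of 5.

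Kidney and intestine are other sites of UGT2 and UGT3 expression. Of the kidney tubule markers 0 were tested, with Umod and Kap listed at 0 in all 6 libraries and a sum of at most 1.12 FPKM. Of 3 tested intestinal markers 1 rose in tumor against precancerous tissue, Vil1, where 13.8% of all tested genes rose. Fabp2 was at 36.2 to 79.5 FPKM and Lgals4 at 1.66 to 6.85 FPKM over the 6 libraries, and Cdx2 was listed at 0 in all 6. In tumor against normal tissue Vil1 (7.89) and Fabp2 (0.54) were called higher and Lgals4 (-1.23) lower. The part of the cell types in the members' lower values in tumors was not tested.

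The genes whose 6 levels ran most like those of 4 members were listed by the root mean square difference, over the 6 libraries, of log2(FPKM + 1) values centred on each gene's mean. For Ugt2b1 these were C8b (0.213), Serpina3k (0.243) and C9 (0.338), and for Ugt3a1 they were Cth (0.184), Ephx2 (0.206) and Gpx1 (0.224). C8b had 143, 102 and 23.2 FPKM in male normal, precancerous and tumor tissue and 28.2, 33.8 and 16.6 FPKM in the female tissues, so like Ugt2b1 it was far apart in the normal livers and close in the tumors. For Ugt2b5 they were Cmtm6 (0.109), Necab1 (0.118) and Cabyr (0.143), and for Ugt2b36 they were Casd1 (0.0452), Jtb (0.0768) and Spryd7 (0.0885). Cabyr was low, from 3.07 FPKM in male normal to 0.113 FPKM in female precancerous tissue. At such levels the pseudocount of 1 holds differences down, so Cabyr is not shown to vary like Ugt2b5 in fold terms. To a lesser degree this also touches Necab1 (4.02 to 15.0 FPKM), Casd1 (2.77 to 9.32 FPKM), Jtb (4.21 to 14.7 FPKM) and Spryd7 (2.34 to 7.25 FPKM). Serpina3k belongs to a family of near copies, and its value is uncertain.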

How the data were processed

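Per the file headers, the deposited table pairs a count with an FPKM for every gene in every library. The authors' counts were not normalized, and each deposited FPKM equalled the count scaled to 1 gene length and the library total (ratio 0.999982 to 1.00002 for genes with at least 50 counts). The submitters' processing notes name TopHat2 2.0.9, Cuffdiff, GRCm38 and mm10 but not the role of each. Per the labels' protocols the kit was a stranded one, and no source used here says whether strand was used in counting. Each of the 6 groups has 1 library, with 5996585 to 18434508 counts.

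From the counts, edgeR 4.0.16 (R 4.3.3) fitted tissue and sex as additive terms with TMM scaling and a quasi-likelihood test, which leaves 2 residual degrees of freedom. The filter on low values was 1 FPKM or more in 2 or more libraries. Alternatives were other scalings, no filter, DESeq2 1.42.0, limma 3.58.1 on log2(FPKM + 1) and log2(FPKM + 0.1), no sex term and leaving out each library. Single pairs are given as differences of log2(FPKM + 1), which understate the change of low genes, or as FPKM ratios with exact 95% intervals for counting error only. Promoters are from RefSeq, and gene models are from GENCODE M21, in which all 10 gene identifiers were found. Coding identity was measured with Biopython 1.88. The genes named are all 10 members, the called genes of the lists of other UGT genes, sugar supply, export and regulators, and the 3 genes most like each of 4 members (the 3 with the highest mean FPKM, and Ugt3a1). The members and lists were chosen with earlier results of these data known. The hepatocyte marker Tf was not analysed here. The values of 1 gene of the regulator list are not reported here.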

Additional observations from a re-analysis of the deposited data

Results flagged for a closer look

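For 4 genes the males and the females moved in opposite ways between the same tissues, with both counting intervals of the FPKM ratio excluding 1. Each sex has 1 library per tissue, so these differences between the sexes were not tested. The intervals cover counting error only, so at high counts they exclude 1 even for small shifts. How many of all tested genes moved in this way was not counted. All values here are differences of log2(FPKM + 1). In precancerous minus normal tissue, Ugt2b1 differed by -0.48 in males and 0.52 in females, and Ugt2b35 by -0.88 in males and 0.54 in females. In the same tissues Ugt2b34 differed by -0.52 in males and 0.0668 in females, and Ugt2a3 by 0.16 in males and -0.10 in females. In tumor minus precancerous tissue, Ugt2b34 differed by 0.17 in males and -0.26 in females. In tumor minus normal tissue, Ugt2b35 differed by -0.26 in males and 1.16 in females. A single library far from the others of its group could not be looked for, because each group has 1 library.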

How the results depend on the processing

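No paired analysis was possible because each group has 1 library and the shared replicate number 1 pairs nothing. Without the sex term the members called were 1 in tumor against precancerous and 2 in tumor against normal tissue, and of all genes 113, 690 and, in precancerous against normal tissue, 0 were called, against 2965, 3819 and 29 with it. In precancerous against normal tissue, 1 member was called without the low-value filter and by DESeq2, and of all genes 183 without the filter, 368 by DESeq2, 3 by limma on log2(FPKM + 1) and 10 on log2(FPKM + 0.1). In tumor against precancerous tissue limma on log2(FPKM + 1) called 3 members. In male against female liver the members called were 7 with library totals alone, 8 by DESeq2 and 6 by limma with either pseudocount. The counts that follow take both directions together, and wherever they include Ugt2b35 it was called higher. With 1 library left out at a time, the members called were 2 to 7 in tumor against precancerous, 0 to 0 in precancerous against normal, 3 to 5 in tumor against normal and 0 to 5 in male against female tissue. Of all genes the counts were then 458 to 2933, 0 to 219, 1923 to 3241 and 762 to 3732, with the fewest without 1 of the precancerous libraries except in tumor against normal tissue.

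Directions also turned. In precancerous against normal tissue, Ugt2b1 was -0.07 and became 0.0202 by limma with a pseudocount of 1 and 0.0223 with 0.1. With 1 library left out it ran from -0.72 to 0.83, Ugt2a3 from -0.0651 to 0.16, Ugt2b5 from -0.80 to 0.00294, Ugt2b34 from -0.45 to 0.0393, Ugt2b35 from -0.89 to 0.56, Ugt2b37 from -0.15 to 1.73, Ugt2b38 from -1.14 to 1.41 and Ugt3a2 from -0.72 to 0.0529. In tumor against precancerous tissue Ugt2b34 ran from -0.34 to 0.15 and Ugt2b38 from -3.62 to 0.82. In tumor against normal tissue Ugt2b35 ran from -0.28 to 1.15 and Ugt2b38 from -4.41 to 0.0259. In male against female liver Ugt2b37 ran from -1.40 to 0.0799 and Ugt3a2 from -0.0510 to 0.69. Of these only the Ugt2b38 differences had been called, and with fewer libraries the test has less to work with.

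The data are limited by 1 library per group, by the different ages and depths of males and females, and by the few counts of Ugt2b37 and of Ugt2b38 in females.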
